A study of Mus musculus with 16 samples.

Results

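Dio1 encodes type 1 deiodinase, the selenoenzyme of the hepatocyte that removes iodine from thyroid hormone. The acetylation of histone H3 at lysine 27 (H3K27ac), a mark of active promoters and enhancers, was followed here over the Dio1 locus in mouse liver. The deposited table holds read counts over 52645 regions, and 7 of them belong to Dio1: 6 have their midpoint inside the gene, and 1 lies in no gene and has Dio1 as its nearest protein-coding gene within 50 kb. The 4 groups had 3 H3K27ac libraries each. These were NCoR1 KO mice on PTU/LID (low-iodine food containing 0.15% propylthiouracil), WT mice on PTU/LID, NCoR1 KO mice on chow and WT mice on chow. NCoR1 is a nuclear receptor corepressor, and propylthiouracil blocks the synthesis of thyroid hormone. All groups carried the strain label C57BL/6J, were assigned to their diet at 6 weeks of age for 3 weeks, and gave frozen liver on day 21. The labels do not state which part of NCoR1 was deleted or what drove the deletion, nor that every library came from its own animal. The p-values therefore describe the spread of the libraries, part of which may be technical.

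Deiodinases switch thyroid hormone on or off by removing single iodine atoms. The type 1 enzyme turns the prohormone thyroxine (T4) into the active hormone T3, also clears inactive iodothyronines, and is itself sensitive to propylthiouracil. Dio1 transcription in liver is induced by T3 through the thyroid hormone receptor, with which NCoR1 acts as a corepressor when hormone is absent, and Dio1 activity is a common readout of thyroid status in this tissue. In bulk tissue, fewer cells carrying the mark and less of the mark per cell cannot be told apart.

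Dio1 (gene ID 13370) lies on the minus strand of chromosome 4 at 107291465 to 107307168 in GRCm38.p6, the assembly of mm10, and spans 15704 bp. Its 7 regions are numbered here in the direction of transcription and cover 8214 bp between 107298370 and 107307548. Region 1 (107307299 to 107307548, 250 bp) lies upstream, with its midpoint 255 bp before the annotated start. Region 2 (107303100 to 107307183, 4084 bp) contains the start site and runs 4068 bp into the gene. Regions 3 (107302742 to 107302969, 228 bp), 4 (107301831 to 107302587, 757 bp), 5 (107300090 to 107301558, 1469 bp), 6 (107298841 to 107300051, 1211 bp) and 7 (107298370 to 107298584, 215 bp) follow inside the gene. The last 6905 bp of the gene, at its 3′ side, held no region. The annotation used gives no exons, so exons, introns and untranslated parts were not told apart.

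The promoter is shown because both regions next to the start site enter it and their shares of the locus moved in opposite directions on PTU/LID. The 250 bases before the start (chr4:107307169-107307418, minus strand, RefSeq, GRCm38.p6) are printed 5′ to 3′, with bases inside an H3K27ac region in capitals.
Dio1 promoter: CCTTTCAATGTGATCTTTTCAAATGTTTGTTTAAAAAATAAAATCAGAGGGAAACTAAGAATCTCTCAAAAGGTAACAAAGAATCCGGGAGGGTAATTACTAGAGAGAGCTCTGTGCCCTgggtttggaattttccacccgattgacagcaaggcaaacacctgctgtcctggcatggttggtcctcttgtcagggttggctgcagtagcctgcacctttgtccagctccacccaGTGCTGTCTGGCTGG
The first 120 bases in capitals are the part of region 1 that lies in this window. The 115 bases in lower case lie between the regions, and the last 15 bases in capitals are the first of region 2. The window had a GC content of 46.8%, below the median of 52.4% over 32851 promoter windows of the same length and higher than 29.83% of them. None of 4 motifs searched on both strands was found in it. These were the nuclear receptor half-site AGGTCA, present in 14.024% of all windows, a direct repeat of that half-site spaced by 4 bases (0.015%, each such match also a half-site match), TATAAA (12.368%) and CCAAT (33.85%). No match says only that these letters are absent from this window.

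Totals over all regions ran from 2965505 counts in Chow_WT_27ac_96 to 7416187 in Ptulid_NCoRKO_27ac_232. Reads on the mitochondrial chromosome, chrM, took 0.717% to 17.248% of a library, and 7 libraries had more than 2%: all 3 of KO chow, 2 of WT chow, 1 of KO PTU/LID and 1 of WT PTU/LID. Values among these 7 thus set 1 PTU/LID library against 3 chow libraries in KO and 1 against 2 in WT, and 1 KO against 1 WT library on PTU/LID; the lone libraries are assumed to vary like the others, and a call lost there says little. Of the hepatocyte markers, 9 of 10 had a region, with summed counts scaled to depth (CPM) of 3911 to 4026 in KO PTU/LID, 2812 to 4183 in WT PTU/LID, 3348 to 3553 in KO chow and 2988 to 3651 in WT chow; Tf had none. Of the Kupffer cell and macrophage markers 4 of 10 had a region, and Adgre1, Clec4f, Vsig4, Marco, C1qa and Lyz2 had none. Their summed level was 31.4 to 44.1 CPM in KO PTU/LID, 32.9 to 34.02 CPM in WT PTU/LID, 31.9 to 36.4 CPM in KO chow and 46.2 to 63.6 CPM in WT chow. Endothelial markers (9 of 10, Kdr with none) summed to 576.3 to 605.2 CPM in KO PTU/LID, 645.0 to 690.5 CPM in WT PTU/LID, 575.5 to 613.4 CPM in KO chow and 736.5 to 770.1 CPM in WT chow. By these sums WT chow was the highest group for both, but not for every member. Stab2 averaged 219.1 CPM in WT PTU/LID and 199.3 CPM in WT chow. Lyve1 and Cd68 were also highest in WT PTU/LID, and Tie1 in KO PTU/LID. Spi1, at 43.3 CPM in WT chow, made up most of the macrophage sum there. Stellate cell markers (4 of 10, Lrat, Reln, Pdgfrb, Col1a1, Acta2 and Rgs5 with none) summed to 40.7 to 45.4 CPM in KO PTU/LID, 51.3 to 66.0 CPM in WT PTU/LID, 42.8 to 54.0 CPM in KO chow and 67.2 to 72.5 CPM in WT chow. They too were highest in WT chow. Cholangiocyte markers (4 of 8, Krt19, Krt7, Epcam and Cftr with none) summed to 495.6 to 563.9 CPM in KO PTU/LID, 451.2 to 497.0 CPM in WT PTU/LID, 524.7 to 535.0 CPM in KO chow and 403.6 to 436.1 CPM in WT chow. Lymphocyte markers (2 of 8, Cd4 and Ptprc, with Cd3e, Cd8a, Ms4a1, Cd79a and Nkg7 among those with none) summed to 66.4 to 67.4 CPM in KO PTU/LID, 45.8 to 61.1 CPM in WT PTU/LID, 95.02 to 129.0 CPM in KO chow and 89.0 to 91.7 CPM in WT chow. This sum was higher on chow in both genotypes, but its members went opposite ways in KO. There Cd4 averaged 42.2 CPM on PTU/LID and 88.2 CPM on chow, and Ptprc 24.6 CPM on PTU/LID and 19.5 CPM on chow. The part of any of these in the Dio1 results was not tested. Ncor1 itself did not differ between KO and WT (log2 fold change -0.04 ± 0.16 SE on PTU/LID and -0.01 ± 0.16 on chow, adjusted p = 0.935 and 0.974, edgeR's quasi-likelihood test), and acetylation of a locus does not check the deletion of its exons.

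Acetylation of Dio1 was several times lower on PTU/LID than on chow in both genotypes. On chow it was higher in KO than in WT livers, a smaller difference whose call depended on single libraries and on scaling. Summed over its 7 regions, Dio1 had 55.3, 37.2 and 38.6 CPM in the KO PTU/LID libraries Ptulid_NCoRKO_27ac_211, Ptulid_NCoRKO_27ac_232 and Ptulid_NCoRKO_27ac_239. It had 61.1, 39.9 and 34.6 CPM in the WT PTU/LID libraries Ptulid_WT_27ac_135, Ptulid_WT_27ac_155 and Ptulid_WT_27ac_280. In the KO chow libraries Chow_NCoRKO_27ac_122, Chow_NCoRKO_27ac_146 and Chow_NCoRKO_27ac_190 it had 262.7, 236.9 and 315.0 CPM, against 169.3, 183.3 and 163.1 CPM in the WT chow libraries Chow_WT_27ac_96, Chow_WT_27ac_99 and Chow_WT_27ac_106. Values per library follow this order below. The PTU/LID and chow libraries thus did not overlap. The KO chow libraries all lay above the WT chow libraries, whereas KO and WT overlapped on PTU/LID. In each PTU/LID group the library with more than 2% chrM reads, Ptulid_NCoRKO_27ac_211 in KO and Ptulid_WT_27ac_135 in WT, had the highest value.

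**Figure D1:**
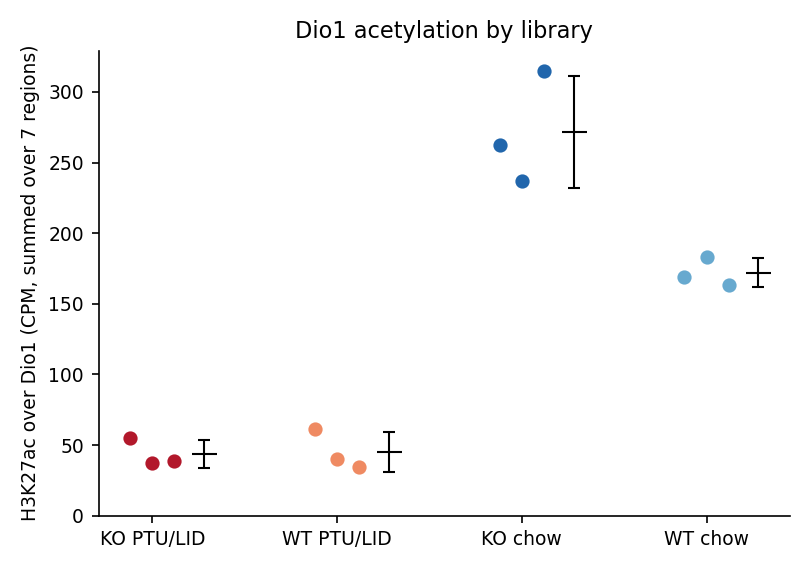
H3K27ac over Dio1 in each of the 12 libraries, in CPM summed over its 7 regions; points are libraries and the bars beside them the mean ± SD of the 3 libraries of a group. All PTU/LID libraries sit between 34.6 and 61.1 CPM, below all chow libraries, and the KO chow libraries, from 236.9 to 315.0 CPM, sit above the WT chow libraries.

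In KO livers Dio1 averaged 43.7 ± 10.1 CPM on PTU/LID and 271.5 ± 39.8 CPM on chow (SD, n = 3 each). The log2 fold change was -2.66 ± 0.18 (SE; 95% interval -3.04 to -2.28), a 6.30-fold lower level, with an adjusted p of 1.67e-08 by edgeR's quasi-likelihood test with Benjamini-Hochberg adjustment over 11445 genes. It was the fifth lowest log2 fold change of these genes (rank 5). In WT livers the means were 45.2 ± 14.0 CPM on PTU/LID and 171.9 ± 10.3 CPM on chow, a log2 fold change of -1.95 ± 0.18 (-2.33 to -1.56; adjusted p = 2.75e-06), 3.85-fold lower and rank 4 from the lowest. For background, 7.54% of all genes passed in KO (3.46% lower) and 7.86% in WT (3.71% lower), and the median log2 fold change over all genes was -0.02 in KO and -0.005 in WT. Among libraries with more than 2% chrM reads alone, the log2 fold change was -2.29 in KO and -1.52 in WT. With a yes-or-no term for a chrM share above 2%, called the term for chrM share below, it was -2.38 in KO and -1.84 in WT. All KO chow libraries were above 2%, so that group added nothing to the estimate of the term. Among the libraries below 2%, WT gave -2.14, and KO gave no value because no KO chow library was there.

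KO was set against WT on each diet to ask how loss of the corepressor bears on the locus. No hormone values were used, so the thyroid state of the mice was not checked. On chow, Dio1 was 1.58-fold higher in KO (log2 fold change 0.66 ± 0.17 SE, 0.31 to 1.01; adjusted p = 0.0319, edgeR). For background, 4.12% of all genes passed there, and 2.63% of all genes were higher. The call depended on single libraries and on scaling. It ended without the KO library Chow_NCoRKO_27ac_122 (0.68, adjusted p = 0.0843) or Chow_NCoRKO_27ac_190 (0.54, 0.143), and without the WT library Chow_WT_27ac_96 (0.65, 0.0931), Chow_WT_27ac_99 (0.71, 0.0906) or Chow_WT_27ac_106 (0.62, 0.121), by the same edgeR test. It also ended with upper-quartile scaling, without scaling factors, with cyclic loess and without region 2, while the direction stayed positive in each. Among libraries with more than 2% chrM reads it was 0.62 (adjusted p = 0.000342), and with a term for chrM share 0.51 (0.00512).

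On PTU/LID, KO and WT differed by a log2 fold change of -0.05 ± 0.19 SE (95% interval -0.45 to 0.35; adjusted p = 0.927, edgeR), with 6.26% of all genes past the threshold. Its upper bound of 0.35 lies below the 0.66 measured on chow, but within the interval of that value. On PTU/LID, however, regions 2, 4, 5 and 6 stood at percentile 0.04 to 0.89 of all regions by mean CPM per kb. The input libraries were not used. At so low a level a genotype difference is hard to see, and how far this limits the PTU/LID value was not tested. The diet effect in KO minus that in WT was -0.71 ± 0.25 (-1.24 to -0.18), with an adjusted p of 0.320, so it did not pass. This difference equals the -0.05 on PTU/LID less the 0.66 on chow, so nearly all of it comes from chow. Only 0.411% of genes passed for it. Dio1 thus gave no call for a diet effect that differs between genotypes.

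Region by region, the loss on PTU/LID was called at the start site and at several regions inside the gene, and region 3 passed in neither genotype. In KO livers 6 of 7 regions fell (regions 1, 2, 4, 5, 6 and 7), and in WT livers 4 of 7 (regions 2, 4, 5 and 6). For background, 6.21% of 52606 regions passed in KO (2.94% lower) and 3.7% in WT (1.9% lower). Every one of these calls was kept when any 1 of the 12 libraries was left out. Regions 1 and 7 lost their KO call among the libraries with more than 2% chrM reads (-1.36, adjusted p = 0.209, and -1.56, 0.226), and region 1 also with a term for chrM share (-1.10, 0.156, edgeR).

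Region 2 is the longest and had the highest CPM of the 7 in every group, and it holds the start site and the first part of the gene. Per kb it was the highest only in KO chow. It had 28.6, 22.4 and 22.6 CPM in the KO PTU/LID libraries and 29.0, 21.3 and 18.3 CPM in the WT PTU/LID libraries. On chow it had 155.9, 141.2 and 196.1 CPM in KO and 90.6, 96.6 and 94.4 CPM in WT. Diets did not overlap in either genotype, and on chow every KO library exceeded every WT library. Its log2 fold change on PTU/LID was -2.76 ± 0.18 (SE) in KO (adjusted p = 1.07e-13) and -2.05 ± 0.19 in WT (1.97e-09). KO against WT on chow it was 0.81 ± 0.17 (adjusted p = 0.00493), the only one of 7 regions to pass in that comparison, where 2.43% of all regions passed (1.61% higher). That call ended without Chow_NCoRKO_27ac_190 (0.66, adjusted p = 0.0788) and with cyclic loess (0.64, 0.0636). On PTU/LID KO and WT differed by 0.11 ± 0.19 in region 2 (-0.28 to 0.49).

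**Figure D2:**
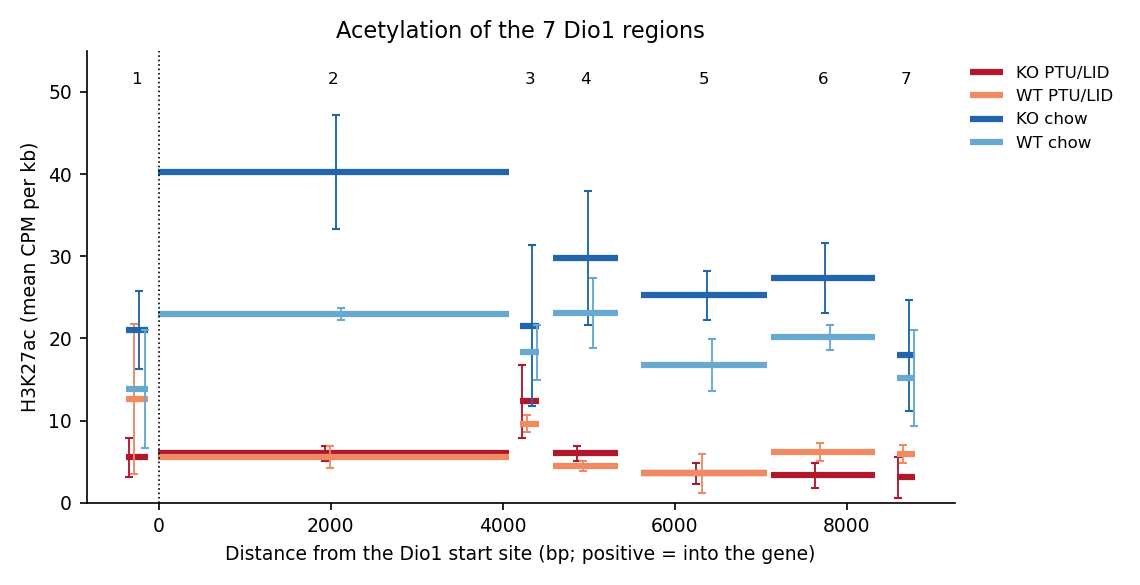
Mean H3K27ac of each Dio1 region in CPM per kb, drawn to scale against distance from the annotated start site (0, dotted; positive distances run into the gene); thick lines span the regions, colours are groups and thin bars are ± SD of 3 libraries. Region 2 reached 40.3 CPM per kb in KO chow and 23.0 in WT chow, and lay at 6.01 in KO PTU/LID and 5.60 in WT PTU/LID.

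Regions 4, 5 and 6, in the middle of the gene, fell in both genotypes. Region 4 had 5.11, 4.83 and 3.79 CPM in KO PTU/LID, 3.88, 3.01 and 3.28 CPM in WT PTU/LID, 28.3, 16.0 and 23.4 CPM in KO chow and 15.5, 15.7 and 21.2 CPM in WT chow. Its log2 fold change on PTU/LID was -2.31 ± 0.25 in KO and -2.39 ± 0.29 in WT (SE; adjusted p = 1.51e-08 and 3.83e-07). The diets did not overlap and the genotypes overlapped on chow. Region 5 had 7.42, 3.86 and 4.66 CPM in KO PTU/LID, 9.26, 3.88 and 2.67 CPM in WT PTU/LID, 34.5, 34.6 and 42.2 CPM in KO chow and 22.8, 29.8 and 21.2 CPM in WT chow. It fell by 2.86 ± 0.27 in KO and by 2.30 ± 0.29 in WT on the log2 scale (adjusted p = 1.83e-09 and 2.94e-06). All 3 KO chow libraries lay above the WT chow libraries, but the difference of 0.60 ± 0.24 did not pass (adjusted p = 0.167). It passed where only these 2 groups entered the fit (adjusted p = 0.0338).

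Region 6 was the one region in which KO and WT differed on PTU/LID. It had 6.14, 2.76 and 3.21 CPM in KO PTU/LID and 8.96, 6.46 and 6.98 CPM in WT PTU/LID, without overlap. On chow it had 29.6, 30.7 and 39.1 CPM in KO and 25.7, 25.1 and 22.3 CPM in WT, the KO libraries here being the higher. KO against WT, its log2 fold change on PTU/LID was -0.96 ± 0.29 (SE; -1.54 to -0.38; adjusted p = 0.0499, edgeR), where 3.86% of all regions passed and 0.698% were lower. The call stood at the threshold. It ended without any 1 of 11 of the 12 libraries, the exception being Ptulid_NCoRKO_27ac_211, with adjusted p up to 0.280, and where only the 2 groups entered the fit (0.150). The diet difference was -3.13 ± 0.25 in KO and -1.71 ± 0.24 in WT (adjusted p = 7.57e-12 and 1.06e-05). Their difference, -1.41 ± 0.36, had an adjusted p of 0.0762. It passed with DESeq2 (-1.43, adjusted p = 0.0357) and without Ptulid_NCoRKO_27ac_211 (-1.75, 0.0136), and in no other setting run. Without any other library it lay between -1.51 and -1.19 (adjusted p up to 0.246), and among the libraries with more than 2% chrM reads it was -0.93 (0.534).

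Across the 7 regions, 0 passed for this difference of diet effects by edgeR, 3 (regions 1, 2 and 6) had an unadjusted p under 0.05, and DESeq2 called 1, where 0.23% of all regions passed by edgeR. DESeq2 gave no adjusted p for regions 1, 3 and 7.

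The 3 shortest regions, 1, 3 and 7, rested on 2 to 47 counts per library and were less precise. The upstream region 1 had 2.05, 1.24 and 0.875 CPM in KO PTU/LID against 4.90, 4.28 and 6.57 CPM in KO chow, without overlap. In WT it had 5.68, 2.58 and 1.23 CPM on PTU/LID against 3.48, 5.25 and 1.65 CPM on chow, and the diets overlapped. Its diet difference was -2.01 ± 0.44 in KO (SE; adjusted p = 0.00282) and -0.13 ± 0.46 in WT (95% interval -1.06 to 0.79; 0.913). The difference between these was -1.87 ± 0.64 (adjusted p = 0.284). Region 3 had 3.58, 1.66 and 3.21 CPM in KO PTU/LID, 2.39, 1.94 and 2.258 CPM in WT PTU/LID, 2.72, 4.84 and 7.18 CPM in KO chow and 4.75, 3.31 and 4.46 CPM in WT chow. It passed in no comparison, with -0.87 ± 0.35 in KO and -0.93 ± 0.41 in WT for diet (adjusted p = 0.153 and 0.204). The WT libraries of the 2 diets did not overlap, and the KO libraries did. Region 7, the last in the gene, had 1.28, 0.276 and 0.437 CPM in KO PTU/LID, 1.49, 1.29 and 1.03 CPM in WT PTU/LID, 5.44, 3.54 and 2.60 CPM in KO chow and 4.12, 3.87 and 1.82 CPM in WT chow. The diets did not overlap in either genotype. Its diet difference was -2.70 ± 0.50 in KO (adjusted p = 0.000317) and -1.29 ± 0.50 in WT (0.143).

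**Figure D3:**
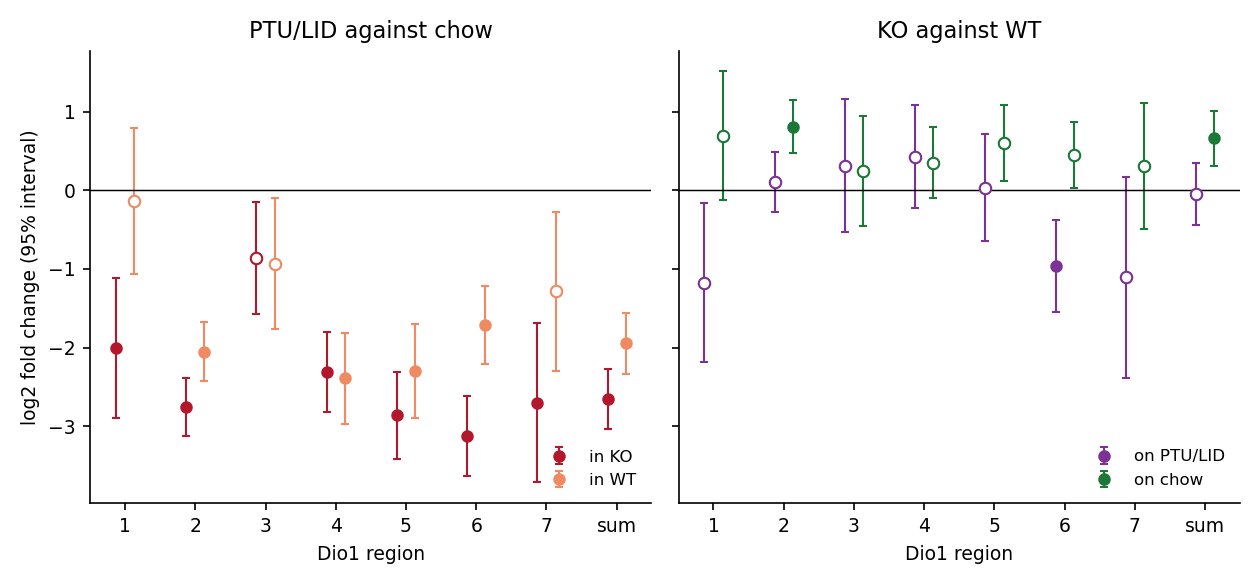
Log2 fold changes of the 7 Dio1 regions and of their sum, with 95% intervals; the left panel shows PTU/LID against chow in KO and in WT, the right panel KO against WT on PTU/LID and on chow, and filled points passed an adjusted p of 0.05. Regions 2, 4, 5 and 6 and the sum lie below -1.7 for diet in both genotypes, while region 1 in WT lies near 0.

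Set against all 52645 regions by mean CPM per kb (library totals only, no scaling factors), the regions of the locus stood lower on PTU/LID than on chow, with region 1 in WT as the exception (percentile 17.34 on PTU/LID and 15.56 on chow). Region 2 stood at percentile 0.76 in KO PTU/LID and 0.54 in WT PTU/LID, and at percentile 94.81 in KO chow and 67.82 in WT chow. Regions 4, 5 and 6 stood at 0.06 to 0.78 in KO PTU/LID, 0.04 to 0.89 in WT PTU/LID, 74.77 to 84.83 in KO chow and 31.73 to 68.19 in WT chow. On PTU/LID these regions were therefore among the weakest 1% of all regions in the table. Region 3 kept a higher place, 14.99 in KO PTU/LID and 5.64 in WT PTU/LID, and region 1 stood at 0.55 in KO PTU/LID. Per length over all 7 regions, Dio1 had 5.32 ± 1.23 CPM per kb in KO PTU/LID, 5.51 ± 1.71 in WT PTU/LID, 33.1 ± 4.85 in KO chow and 20.9 ± 1.26 in WT chow.

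The regions did not all change to the same extent. This was asked with the log2 ratio of each region's count to the summed count of the other Dio1 regions, which does not depend on library scaling, by a two-sided exact permutation test of diet within genotype or of genotype within diet (400 arrangements, smallest p 0.005). For diet, the ratio of region 1 was higher on PTU/LID by 1.23 (0.69 in KO, 1.76 in WT; exact p = 0.005, 0.0175 adjusted over the 7 ratios). That of region 3 was higher by 1.51 (1.96 in KO, 1.07 in WT; exact p = 0.005, adjusted 0.0175). That of region 2 was lower by 0.22 on this scale (-0.20 in KO, -0.25 in WT; exact p = 0.015, adjusted 0.035). Regions 1 and 3 thus lost less than the rest of the locus, although each rests on few counts. The ratios share their counts, so the calls of regions 1, 2 and 3 are not independent. The region 2 call ended without any 1 of 8 of the 12 libraries (adjusted p up to 0.105), and that of region 1 without Chow_WT_27ac_106 (1.004, adjusted exact p = 0.07). Regions 4 to 7 did not pass (adjusted exact p = 0.166 to 0.940).

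Between KO and WT the ratios of 2 of the 7 regions differed, those of region 2 at the start site and region 6 inside the gene. The ratio of region 2 was higher in KO by 0.36 (0.39 on PTU/LID, 0.33 on chow), and that of region 6 was lower in KO, with a difference of -0.64 (-1.04 on PTU/LID, -0.25 on chow); each had an exact p of 0.005, 0.0175 adjusted over the 7 ratios. Both calls were kept without any 1 library. Each ratio has the other regions as its denominator, so these calls are not independent. On chow the ratio of region 6 was lower in KO although its own log2 fold change was 0.45 ± 0.21 (SE, adjusted p = 0.244, edgeR). As shares, region 2 held 57.2 ± 3.92% of the Dio1 count in KO PTU/LID, 50.5 ± 2.5% in WT PTU/LID, 60.5 ± 1.16% in KO chow and 54.9 ± 1.48% in WT chow (SD, n = 3 each). Region 6 held 9.02 ± 2.03% in KO PTU/LID, 16.8 ± 2.48% in WT PTU/LID, 12.2 ± 0.87% in KO chow and 14.2 ± 1.03% in WT chow. The ranges of KO and WT did not overlap on either diet for both regions. The other 5 ratios did not pass (adjusted exact p = 0.163 to 0.8).

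The change on PTU/LID was much smaller outside Dio1. Within 250 kb lie 13 other protein-coding genes, of which 8 had a region (Ssbp3, Mrpl37, Cyb5rl, Tceanc2, Tmem59, Lrrc42, Yipf1 and Ndc1) and 5 had none (Cdcp2, Ldlrad1, Hspb11, Glis1 and Gm46866). Over all genes, 7.54% passed for diet in KO (3.46% lower) and 7.86% in WT (3.71% lower). For genotype 6.26% passed on PTU/LID (4.77% higher) and 4.12% on chow. A single call among 8 genes therefore does not set the neighbours apart from other genes. In KO 1 of the 8 passed, Lrrc42, lower by a log2 fold change of -0.70 ± 0.14 (SE; adjusted p = 0.00169, edgeR), which among libraries with more than 2% chrM reads was -0.68 (0.0516). In WT 1 of the 8 passed, Tceanc2 (-0.50 ± 0.14, adjusted p = 0.0316), a call lost without Ptulid_WT_27ac_155 (-0.41, 0.165) or Ptulid_WT_27ac_280 (-0.47, 0.126) and without Chow_WT_27ac_96 (-0.51, 0.0759) or Chow_WT_27ac_99 (-0.41, 0.150). Yipf1, whose gene body begins 7055 bp upstream of Dio1, had -0.52 ± 0.17 in KO (adjusted p = 0.0605) and -0.18 ± 0.17 in WT (0.565). Tceanc2 was also the one neighbour that passed for genotype, higher in KO on PTU/LID by 0.73 ± 0.14 (adjusted p = 0.00155); the 1 KO and 1 WT library with more than 2% chrM reads differed by 0.26.

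The single regions that flank the locus gave the same picture. The next region upstream (chromosome 4, 107313484 to 107314295, at an end of Yipf1) lies 5935 bp from region 1. It had 15.0 ± 1.13 CPM in KO PTU/LID, 17.7 ± 4.05 in WT PTU/LID, 23.6 ± 0.452 in KO chow and 23.4 ± 1.16 in WT chow. It fell in KO by 0.66 ± 0.20 on the log2 scale (adjusted p = 0.0330) and had -0.39 ± 0.20 in WT (0.293). The next region downstream (107248538 to 107248874, in Lrrc42) lies 49495 bp from region 7 and had -0.37 ± 0.36 in KO and -0.25 ± 0.39 in WT (adjusted p = 0.639 and 0.783). The intervals of both flanking regions in both genotypes, from -1.09 to 0.54 at most, lie above those of the Dio1 sum.

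**Figure D4:**
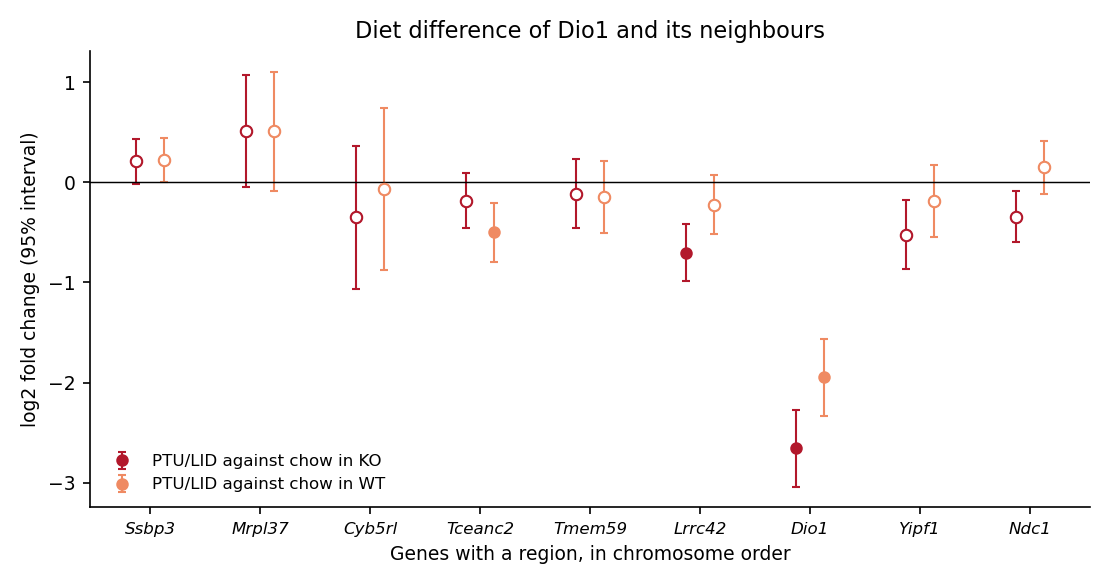
Log2 fold changes of PTU/LID against chow in KO and in WT, with 95% intervals, for Dio1 and the 8 neighbouring genes that have a region, in chromosome order; filled points passed an adjusted p of 0.05. Dio1, at -2.66 in KO and -1.95 in WT, lies below every neighbour, the lowest of which is Lrrc42 in KO at -0.70.

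The other genes of thyroid hormone handling were read from the same fit over all genes, with counts summed per gene. In the diet comparisons 7.54% of all genes passed in KO (4.08% higher, 3.46% lower) and 7.86% in WT (4.15% higher, 3.71% lower), and for genotype 6.26% on PTU/LID (1.49% lower) and 4.12% on chow (1.49% lower). Of the other deiodinases, Dio2, the type 2 activating enzyme, had no region. Dio3, the enzyme that inactivates T3, had 4 regions, all 34.2 to 49 kb from the gene. These had 75.0 ± 11.9 CPM in KO PTU/LID, 61.5 ± 12.6 in WT PTU/LID, 38.3 ± 7.33 in KO chow and 36.9 ± 3.67 in WT chow. They rose on PTU/LID by 0.98 ± 0.16 in KO (SE; adjusted p = 0.000283) and by 0.75 ± 0.17 in WT (0.00828), opposite in direction to Dio1. The WT call ended without Ptulid_WT_27ac_155 (0.65, adjusted p = 0.0570) or Ptulid_WT_27ac_280 (0.66, 0.0587), without Chow_WT_27ac_99 (0.69, 0.0526), and among the libraries with more than 2% chrM reads (0.35, 0.549).

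Genes that make or use selenocysteine, the residue at the active centre of deiodinases, mostly did not pass. Of 7 genes of selenoprotein synthesis, 1 fell in each genotype, Sepsecs, which builds selenocysteine on its tRNA (-0.37 ± 0.11 in KO, adjusted p = 0.0459, and -0.52 ± 0.12 in WT, 0.00874). Its KO call ended without any 1 of 10 of the 12 libraries (adjusted p up to 0.193) and its WT call without Ptulid_WT_27ac_155 (-0.48, 0.0508) and among the libraries with more than 2% chrM reads (-0.51, 0.120). The list medians were 0.04 in KO and 0.22 in WT. Sepsecs was higher in KO than in WT on PTU/LID (0.56 ± 0.12, adjusted p = 0.00375; without scaling factors 0.46, 0.0617) and on chow (0.41 ± 0.11, 0.0423, lost without any 1 of 8 libraries; without scaling factors 0.22, 0.355). Of 13 other selenoprotein genes, 1 fell, the glutathione peroxidase gene Gpx1 (-0.58 ± 0.10 in KO, adjusted p = 0.000836, and -0.48 ± 0.11 in WT, 0.00680), with list medians of -0.05 in KO and 0.03 in WT. Among libraries with more than 2% chrM reads Gpx1 in WT did not pass (-0.39, 0.117). None of the 13 passed for genotype on either diet by edgeR or DESeq2, and 1 on PTU/LID and 2 on chow had an unadjusted p under 0.05 by edgeR. Selenom and Selenon of these 2 lists had no region under those names. Nor did Sars1, but the same gene was tested under its other symbol, Sars, among the 7 of selenoprotein synthesis.

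Of 12 genes of thyroid hormone transport and binding, 3 rose and 0 fell in KO, and 3 rose and 1 fell in WT, with list medians of 0.11 in KO and 0.10 in WT. Ttr, the plasma carrier transthyretin, rose in both (0.46 ± 0.09 in KO, adjusted p = 0.00176, and 0.42 ± 0.09 in WT, 0.00610). Slco1a1, an organic anion transporter, fell in WT to 5.85 ± 0.616 CPM on PTU/LID, against 17.6 ± 5.14 CPM on chow (log2 fold change -1.57 ± 0.30, adjusted p = 0.00223). In KO it had 5.36 ± 2.14 CPM on PTU/LID and 8.45 ± 1.94 CPM on chow (adjusted p = 0.189). Serpina7, thyroxine-binding globulin, rose in KO (1.18 ± 0.28, adjusted p = 0.0112, up to 0.0766 without a library). Crym, a T3-binding protein of the cytosol, rose in WT (0.66 ± 0.17, 0.0159, up to 0.128), and Slc17a4 rose in both (0.47 in KO and 0.46 in WT, adjusted p = 0.0408 and 0.0475, up to 0.269 and 0.171). The Slc17a4 call ended without any 1 of 6 of the 12 libraries in KO and of 7 in WT. Among the libraries with more than 2% chrM reads Crym had 0.16 (adjusted p = 0.829), Serpina7 0.82 (0.151) and Slc17a4 0.34 in KO (0.316) and 0.31 in WT (0.525). On chow Slco1a1 was lower in KO than in WT (-1.04 ± 0.28, adjusted p = 0.0319, up to 0.199 without a library), and no member passed for genotype on PTU/LID by edgeR, where 2 had an unadjusted p under 0.05 and DESeq2 called 1.

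Of 11 genes of thyroid hormone conjugation, 1 rose and 1 fell in KO and 0 changed in WT (edgeR and DESeq2, with 0 at an unadjusted p under 0.05 by edgeR), with list medians of -0.19 in KO and 0.02 in WT. The glucuronosyltransferase gene Ugt1a9 rose in KO (0.70 ± 0.14, adjusted p = 0.00255) and was higher in KO than in WT on PTU/LID (0.55 ± 0.14, 0.0203, up to 0.133 without a library). Reads of the overlapping Ugt1a genes cannot be assigned to 1 member. Sult1c2, a sulfotransferase of a family of similar copies, fell in KO (-0.46 ± 0.13, adjusted p = 0.0324, up to 0.131 without a library, and -0.48 with 0.125 above 2% chrM reads).

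Of 17 receptor and coregulator genes, 1 rose in KO and 1 fell in WT, with list medians of 0.0004 in KO and -0.08 in WT. Tbl1x and Tbl1xr1 encode subunits of the NCoR corepressor complex. Tbl1x rose in KO (0.41 ± 0.12, adjusted p = 0.0446, up to 0.222 without a library), and Tbl1xr1 fell in WT (-0.34 ± 0.11, 0.0492, up to 0.174). Each of these calls ended without any 1 of 10 of the 12 libraries. Tbl1xr1 was higher in KO than in WT on PTU/LID (0.75 ± 0.10, adjusted p = 8.79e-05), with 249.5 ± 22.4 CPM in KO and 147.9 ± 10.2 CPM in WT. It was also higher in KO on chow (0.58 ± 0.10, 0.00220; without scaling factors 0.39, 0.0547). Tbl1x was higher in KO on PTU/LID at the threshold (0.42 ± 0.13, adjusted p = 0.0497) and lost the call without any 1 of the 12 libraries. The receptor gene Thrb had 465.7 ± 29.1 CPM in KO PTU/LID, 431.7 ± 32.0 in WT PTU/LID, 461.9 ± 13.8 in KO chow and 462.9 ± 30.8 in WT chow.

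Of 21 other genes known to be induced by thyroid hormone in liver, 4 fell and 3 rose on PTU/LID in KO, and 4 fell and 1 rose in WT, with list medians of 0.11 in KO and -0.11 in WT. Both Cyp7a1, which catalyses the first step from cholesterol to bile acids, and Gpd2, mitochondrial glycerol-3-phosphate dehydrogenase, fell in both genotypes. Cyp7a1 had -1.01 ± 0.13 in KO (SE; adjusted p = 1.48e-05) and -0.66 ± 0.14 in WT (0.00589), and the WT call did not stand within either set of chrM share (adjusted p = 0.0803 above 2% and 0.0560 below). Gpd2 had -0.57 ± 0.12 in KO (0.00372) and -0.71 ± 0.13 in WT (0.00135). Idh3a, a subunit of isocitrate dehydrogenase, fell in KO (-1.22 ± 0.23, 0.00144), and in WT the uncoupling protein gene Ucp2 (-0.66 ± 0.14, 0.00610) and malic enzyme, Me1 (-0.63 ± 0.15, 0.0141, up to 0.101 without a library) fell. Among libraries with more than 2% chrM reads Idh3a (-0.90, 0.101), Ucp2 (-0.32, 0.524) and Me1 (-0.19, 0.716) did not pass. Klf9 fell in KO (-0.53 ± 0.15, 0.0335, up to 0.128 without a library). The risers were Acly, ATP citrate lyase (0.53 ± 0.12 in KO, 0.00571), Ppargc1a (0.45 ± 0.12 in KO, 0.0243, up to 0.190) and Tbc1d16 (0.40 ± 0.12 in KO, 0.0494, and 0.51 ± 0.13 in WT, 0.0140, up to 0.252 and 0.0909). The Tbc1d16 call in KO ended without any 1 of 9 of the 12 libraries. With a term for chrM share Tbc1d16 in KO had 0.18 (adjusted p = 0.374) and Ppargc1a 0.32 (0.105), and among the libraries with more than 2% chrM reads Tbc1d16 had 0.058 in KO (0.857) and 0.35 in WT (0.183). The log2 fold change of Dio1 lay below that of each gene named here in both genotypes.

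For genotype, 8 of these 21 genes were higher and 0 lower in KO on PTU/LID (list median 0.37, where 4.77% of all genes were higher), and 5 were higher and 0 lower on chow (median 0.29, where 2.63% were). On PTU/LID these were Thrsp (0.90 ± 0.14), Me1 (0.85 ± 0.15), Gpd2 (0.84 ± 0.13), Angptl4 (0.60 ± 0.15), G6pc (0.58 ± 0.11), Fasn (0.50 ± 0.14), Acaca (0.47 ± 0.10) and Acly (0.43 ± 0.12). Dio1, at -0.05 ± 0.19, was not among them. On chow they were Cyp7a1 (0.70 ± 0.13), Gpd2 (0.69 ± 0.12), Fasn (0.53 ± 0.14), Tbc1d16 (0.49 ± 0.12) and Acaca (0.47 ± 0.11), beside Dio1 at 0.66 ± 0.17. Without single libraries the calls of Angptl4, Fasn and Acly on PTU/LID ended (adjusted p up to 0.0828, 0.106 and 0.158), as did those of Fasn, Acaca and Tbc1d16 on chow (up to 0.149, 0.0599 and 0.149), which without scaling factors had 0.35, 0.28 and 0.30 (adjusted p = 0.154, 0.149 and 0.162). Fasn on PTU/LID had 0.31 (0.0754) among the libraries below 2% chrM. Among libraries with more than 2% chrM reads, Me1 (0.54, adjusted p = 0.173), Gpd2 (0.53, 0.121) and G6pc (0.22, 0.534) had smaller values on PTU/LID, from 1 KO against 1 WT library. Acaca on PTU/LID did not pass without scaling factors (adjusted p = 0.0780), with cyclic loess (0.0564) or where only the groups compared entered the fit (0.0682). No gene of this list passed for the difference of diet effects by edgeR or DESeq2, and 5 had an unadjusted p under 0.05 by edgeR. Hr and Nrgn, also on the list, had no region.

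Of 14 regulators of Dio1 and of hepatocyte genes, 1 fell in KO (Klf9, above) and 3 rose in WT, with list medians of 0.005 in KO and 0.06 in WT. Among the risers in WT were the transcription factor genes Cebpa (0.59 ± 0.14, adjusted p = 0.0156, up to 0.116 without a library) and Nr1i3 (0.54 ± 0.13, 0.0162, up to 0.127). Among the libraries with more than 2% chrM reads both had 0.29 (adjusted p = 0.225 for Cebpa and 0.352 for Nr1i3). On chow Foxa2, a forkhead pioneer factor, was higher in KO (0.43 ± 0.09, adjusted p = 0.00955, up to 0.0587; without scaling factors 0.24, 0.217), and on PTU/LID no member passed for genotype by edgeR or DESeq2, with 1 at an unadjusted p under 0.05 by edgeR.

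The genes whose acetylation was most like that of Dio1 over the 12 libraries were ranked by Pearson correlation of log2 CPM summed per gene, among 11444 genes. The points share libraries, depth and the diet contrast, so r is a description. The nearest were Npr2, a natriuretic peptide receptor (r = 0.986), Rsph1, a radial spoke protein of cilia (0.982), and Mstn, myostatin (0.977). Sult5a1, a sulfotransferase (0.970), Mup16 (0.970), the histone demethylase gene Kdm4d (0.965), 4930432M17Rik (0.963), Mup11 (0.961), Trp53inp2 (0.961) and Mup10 (0.959) followed, and the 11th gene lay at 0.959. The 3 regions of Kdm4d all lay outside the gene, 26.0 to 28.2 kb from it, and the 4 of Mstn 0.9 to 2.9 kb from it. Mup genes, for major urinary proteins, are near-identical copies, so which of them carries the signal is uncertain. By Spearman's rho 4 of the 10 stayed in the top 10, and 62 genes had r above 0.9.

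Npr2 had 47.2, 39.7 and 37.3 CPM in KO PTU/LID, 45.5, 42.2 and 34.4 CPM in WT PTU/LID, 97.8, 78.5 and 99.7 CPM in KO chow and 85.8, 79.9 and 75.9 CPM in WT chow. As in Dio1, the diets did not overlap and the genotypes overlapped on PTU/LID, but KO and WT also overlapped on chow. Rsph1 averaged 2.69 ± 0.607 CPM in KO PTU/LID, 2.174 ± 0.214 in WT PTU/LID, 11.7 ± 1.55 in KO chow and 8.16 ± 0.797 in WT chow (SD, n = 3 each). Mup11 averaged 79.4 ± 1.78 CPM in KO PTU/LID, 63.0 ± 17.3 in WT PTU/LID, 486.6 ± 72.3 in KO chow and 202.2 ± 38.3 in WT chow. In both, as in Dio1, all KO chow libraries lay above all WT chow libraries. The genes were picked for their likeness to Dio1 over these same libraries, so a shared order of groups is partly given by that choice.

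**Figure D5:**
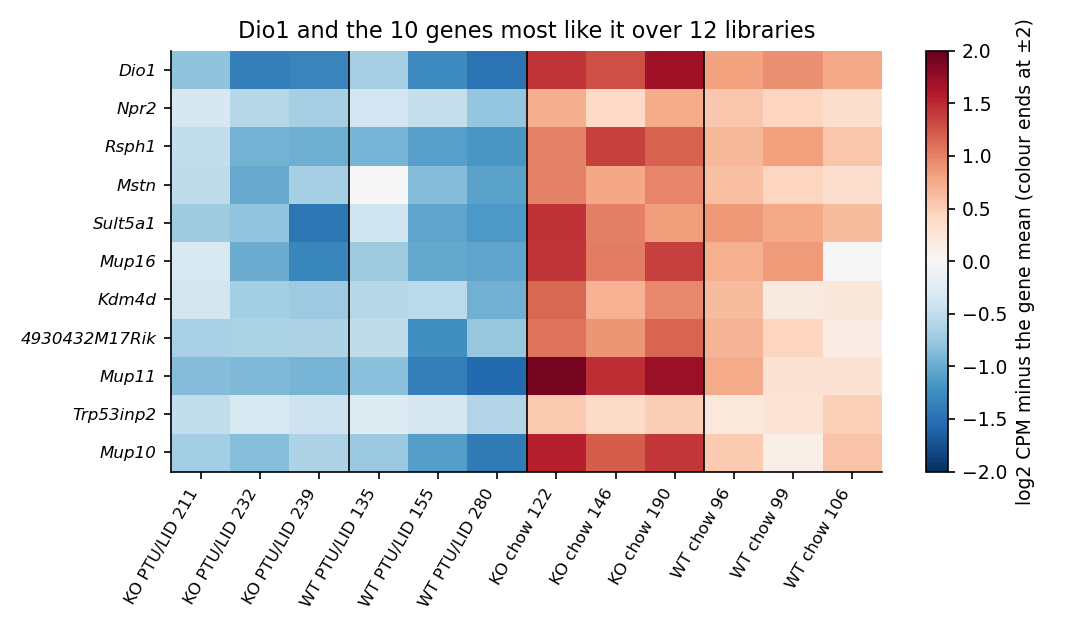
Log2 CPM of Dio1 and the 10 genes most like it, each minus its own mean over the 12 libraries; columns are libraries by group and colour runs from blue (below the mean) to red (above it), ending at ±2. All PTU/LID columns are below or near each gene's mean and all chow columns above or near it, and Dio1 and Mup11 show the widest range.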

How the data were processed

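H3K27ac ChIP-seq of mouse liver was available as 1 table of whole-number read counts that the authors deposited, with 52645 regions and 12 libraries in 4 groups of 3; 4 input libraries are not analysed here. Libraries were grouped by their titles. The submitters' processing notes name, without roles, MACS2 2.1.1, Bowtie2 2.2.1, bedtools 2.26.0, Picard 2.8.1 and bcl2fastq 2.17.1.14, and the build mm10. The treatment of duplicates and the way common regions were built, from pooled reads or library by library, were not given in the sources used here, so region borders may reflect some groups more than others. Per the labels' protocols, the antibody was H3K27ac from Active Motif. Counts per library ran from 2965505 to 7416187, which limits the precision of short regions.

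A region went to the gene holding its midpoint, otherwise to the nearest of 21896 protein-coding genes of RefSeq (GRCm38.p6) within 50 kb; 11456 genes received one. Counts were tested per region and summed per gene with edgeR 4.0.16 (R 4.3.3): TMM factors, filterByExpr with a minimum count of 10 (52606 regions and 11445 genes kept), the robust quasi-likelihood test over all 12 libraries, and Benjamini-Hochberg adjustment with a threshold of 0.05. All 7 Dio1 regions passed the filter. The SE of a log2 fold change is its size divided by the square root of F. CPM use the TMM factors and are relative to all regions, which hides any change common to all of them. The lowest count in the table is 1, so ratios between regions needed no pseudocount. Log2 CPM for correlations used a prior count of 2. Within-group pairs of libraries differed by more than sampling noise (chi-square per degree of freedom 2.198 to 22.047), so none was counted as a repeat.

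Alternatives were RLE, upper-quartile or no scaling factors, cyclic loess with limma 3.58.1, DESeq2 1.42.0, no filter, only the groups compared, a term for or a split by a chrM share above 2%, leaving out 4 chrM regions and 10 nuclear regions that follow them (correlation above 0.9), other sets of Dio1 regions, and leaving out each library. The scripts were tested on simulated data. Genes named are those of Dio1, those within 250 kb, the 10 most correlated with Dio1 and list members past the threshold, of which not every one is reported here. The members and lists were chosen with earlier results of these data known.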

Additional observations from a re-analysis of the deposited data

How the results depend on the processing

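Both diet calls of the Dio1 sum kept their direction and their side of the threshold under every alternative run. Leaving out 1 library gave log2 fold changes of -2.83 to -2.53 in KO and -2.20 to -1.79 in WT, and the other settings -2.72 to -2.29 in KO and -2.14 to -1.52 in WT. The number of Dio1 regions that fell stayed at 6 in KO and 4 in WT without any 1 library. The difference of the diet effects of the sum ranged from -0.86 to -0.45 without a library and from -0.77 to -0.55 otherwise, and passed in none.

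KO against WT on chow lost its call for the Dio1 sum with upper-quartile factors (0.60, adjusted p = 0.102, edgeR), no scaling factors (0.48, 0.142), cyclic loess (0.58, 0.162, limma) and without region 2 (0.47, 0.162), and ranged from 0.54 to 0.74 without a library. The number of regions past the threshold there was 0 with cyclic loess, 2 with only the groups compared, and 0 to 1 without a library. For the difference of diet effects it was 1 with DESeq2 and 0 to 1 without a library. For KO against WT on PTU/LID it was 0 with only the groups compared, 0 among libraries above 2% chrM, and 0 to 1 without a library. The sum in that comparison changed sign among libraries below 2% chrM (0.040), with only the regions inside Dio1 (0.0067), with only those within 2.5 kb of a gene end (0.027), and over single libraries (-0.21 to 0.21), never near the threshold.

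The number of region ratios past the threshold was 1 to 3 for diet and 2 to 4 for genotype without a library; without Chow_WT_27ac_106 it was 1 for diet and 4 for genotype. With the region's CPM in place of the ratio it was 6 and 0, and the diet value turned to -1.12 in region 1, -0.84 in region 3 and -2.03 in region 7, as did the genotype value of region 3 (0.22); CPM asks for the change itself and not for an unequal one. Without a library the ratio crossed 0 for diet in region 4 (-0.10 to 0.10), and for genotype in region 3 (-0.18 to 0.10), region 4 (-0.014 to 0.19) and region 5 (-0.041 to 0.25).

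Other changes of sign were all far from the threshold. For KO against WT on PTU/LID they were region 5 with upper-quartile factors (-0.027), no factors (-0.037) and above 2% chrM (-0.32), and region 2 above 2% chrM (-0.017). For diet in WT they were region 1 with a term for chrM share (0.25), below 2% (0.21) and above 2% (0.36). For KO against WT on chow they were region 7 with that term (-0.036) and above 2% (-0.060). For the difference of diet effects they were region 3 with cyclic loess (-0.015) and region 4 above 2% chrM (-0.14). Without a library, the ranges that crossed 0 were -0.77 to 0.32 (region 1, diet in WT), -0.037 to 0.29 (region 2) and -0.31 to 0.63 (region 5) for KO against WT on PTU/LID, -0.15 to 0.53 (region 3) and -0.060 to 0.54 (region 7) on chow, and -0.22 to 0.46 (region 3), -0.13 to 0.27 (region 4) and -0.91 to 0.027 (region 5) for the difference of diet effects. Except where the text names another setting's own construction, the cause of these changes was not tested.

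No paired analysis was possible because no library number is shared between the H3K27ac groups. Settings that leave a group with 1 library assume that it varies like the others. Regions 1, 3 and 7, with 2 to 47 counts per library, allow only large differences to be seen. No KO chow library had a chrM share below 2%, so KO against WT on chow, diet in KO and the difference of diet effects have no value there.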
